A study of Mus musculus with 36 samples.

Results

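Skeletal muscle fibres carry either slow or fast versions of the contractile proteins, and 10 genes for these versions were followed here in RNA of mouse knee cartilage. The slow isoforms were Myh7, Tnnc1, Tnni1 and Tnnt1, and the fast isoforms were Myh2, Myh1, Myh4, Tnnc2, Tnni2 and Tnnt3. The set was chosen by the RNA counts of muscle genes in these same libraries, so their levels by limb and week are a description. The count of each gene was taken from its RefSeq transcript with the highest mean count over the 12 RNA libraries. The 10 genes held 18 of the 30048 transcripts counted, which belonged to 23071 genes.

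The medial meniscus was destabilized by surgery (DMM), which leads to osteoarthritis in mice, in the right knee of male C57BL/6J mice aged 12 weeks, and the unoperated left knee was the control. Cartilage was taken 4 or 12 weeks after surgery, with tissue of 3 knees pooled in each library, which gave 4 groups of 3 RNA libraries. The operation and the side of the body cannot be told apart, since every operated knee was a right knee. DNA of other mice gave, per group, 3 oxidative bisulfite libraries, which read 5-methylcytosine (5mC), and 3 bisulfite libraries, which read 5mC and 5-hydroxymethylcytosine (5hmC) together. The p-values of the RNA tests measure the spread between these pooled samples. RNA libraries held 27706547 to 62737656 counts, and replicates differed by more than counting noise in every group. The 16 genes of a chondrocyte list were all counted and summed to 11570 to 41140 CPM (counts scaled to library totals adjusted by TMM), whereas the 6 fast isoforms summed to 32.7 to 7824 CPM.

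Muscle shortens when myosin heads pull on actin filaments. The heavy chain of myosin carries the motor, and its isoform sets the speed of the fibre: Myh7 marks slow fibres, and Myh2, Myh1 and Myh4 mark the 2A, 2X and 2B classes of fast fibres. The troponin complex sits on the actin filament and switches contraction on when calcium rises. Troponin C binds the calcium, troponin I holds the filament off at rest, and troponin T ties the complex to tropomyosin. Each has a slow and a fast gene. Cartilage itself is not made of muscle fibres, but muscles lie next to the knee.

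Transcripts of the slow isoforms were high in the 3 control libraries of 4 weeks and low in the other 9 libraries, whereas the fast isoforms were counted in all 12. Myh7, the slow myosin heavy chain, had 3504, 315 and 239 counts in the 4-week control libraries and 0, 3 and 0 counts in the 4-week DMM libraries. At 12 weeks it had 0, 1 and 0 counts in the control libraries and 9, 0 and 0 in the DMM libraries. The 4-week groups did not overlap, and Myh7 was at a count of 0 in 6 of the other 9 libraries. In CPM, the summed 4-week control libraries held 1029 times as much Myh7 as the summed 4-week DMM libraries. The exact 95% interval of this ratio, 352 to 4993, covers counting error only. Control replicate 1 supplied 3504 of the 4058 control counts, and without it the ratio was 198 (67.5 to 965), an alternative chosen after seeing the data. In bulk tissue, fewer cells of a type and less RNA per cell cannot be told apart.

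**Figure D1:**
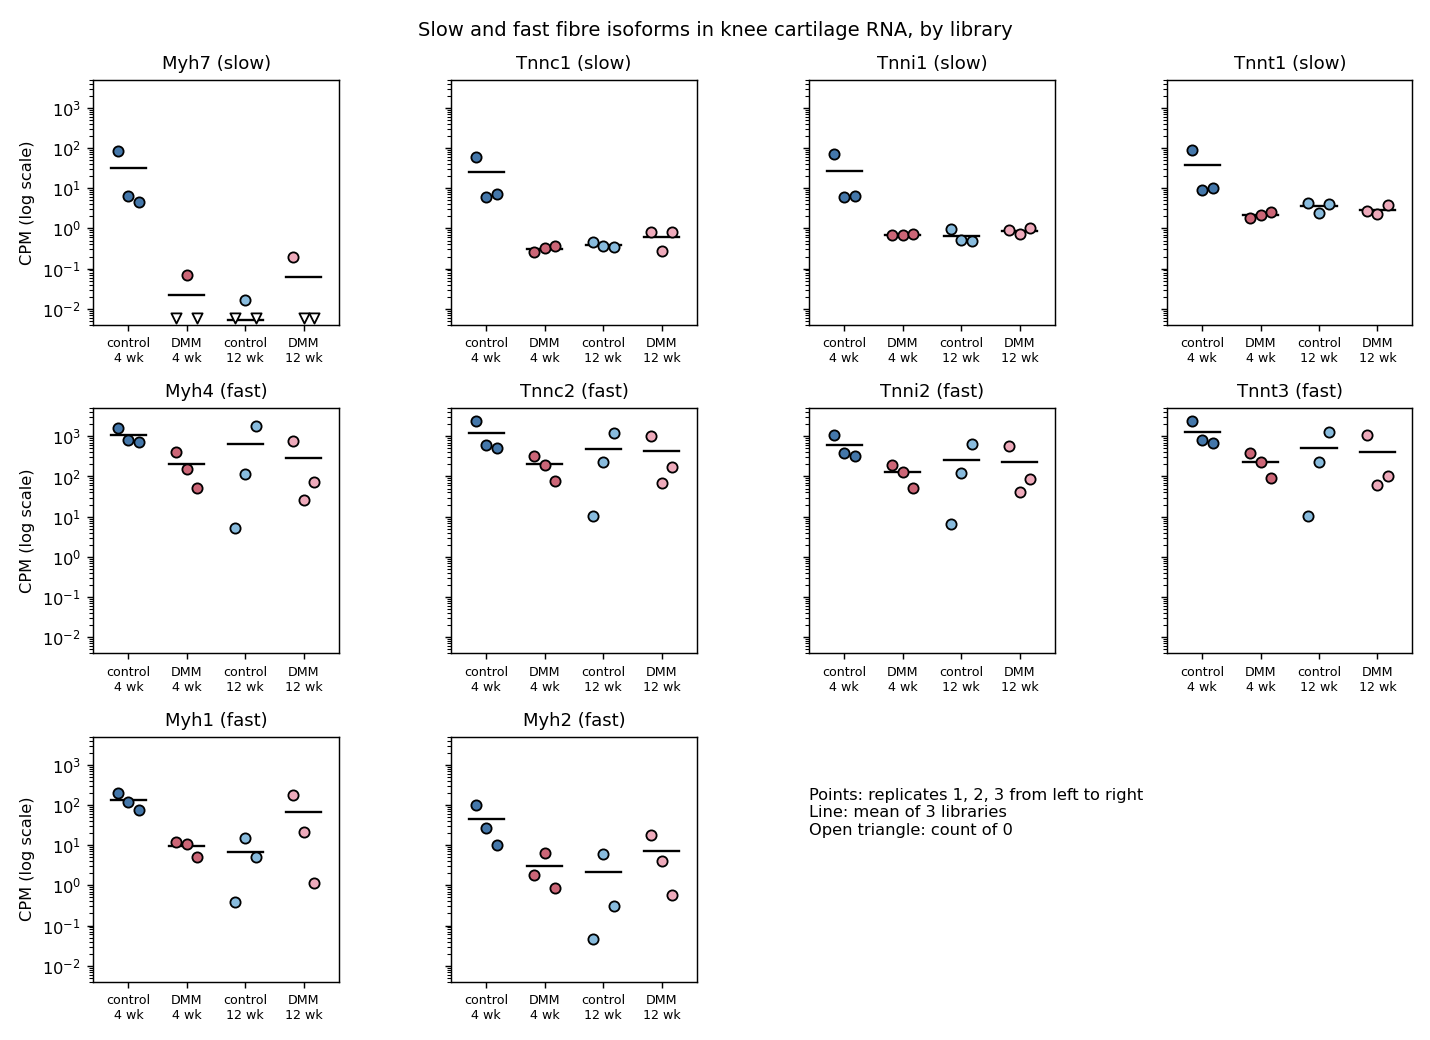
CPM (log scale) of the 10 isoforms in each RNA library by limb and week; points are replicates, lines are means of 3 libraries and open triangles are counts of 0. The 4 slow isoforms are high in the 3 control libraries of 4 weeks and low elsewhere, and the 6 fast isoforms spread widely within both groups of 12 weeks.

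The slow troponins followed Myh7 but were counted in every library. Tnnc1, the troponin C of slow and cardiac muscle, had 2584, 296 and 395 counts in the 4-week control libraries and 9, 14 and 12 in the 4-week DMM libraries. Tnni1, the slow troponin I, had 2947, 309 and 345 counts in control and 23, 31 and 24 in DMM libraries of that week. Tnnt1, the slow troponin T, had 3919, 446 and 545 counts in control and 64, 93 and 86 in DMM libraries. In these 3 genes each DMM library was below each control library, and control replicate 1 stood far above the other two.

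At 12 weeks both limbs were low. Tnnc1 had 19, 22 and 13 counts in control and 38, 7 and 35 in DMM libraries. Tnni1 had 41, 31 and 18 counts in control and 44, 19 and 44 in DMM libraries. Tnnt1 had 176, 153 and 147 counts in control and 130, 58 and 168 in DMM libraries. The limbs overlapped in each of these genes. Over the 9 libraries other than the 4-week controls, Tnnt1 lay between 1.86 and 4.17 CPM, Tnni1 between 0.489 and 1.001 CPM and Tnnc1 between 0.262 and 0.801 CPM, so the highest library was 2.24, 2.05 and 3.06 times the lowest.

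The fast isoforms varied far more over those 9 libraries. Myh4, the 2B myosin, had 69475, 41055 and 39782 counts in control and 14292, 6883 and 1672 in DMM libraries at 4 weeks. At 12 weeks it had 222, 6976 and 64737 counts in control and 36171, 686 and 3125 in DMM libraries. The 4-week limbs did not overlap, whereas the 12-week control group held both the lowest and the highest Myh4 level of the 12 libraries, 5.26 and 1759 CPM.

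The fast troponins shared their lowest library with Myh4, while their highest was replicate 1 of the 4-week controls. Tnnc2, the fast troponin C, had 103653, 30862 and 26714 counts in control and 11151, 8753 and 2594 in DMM libraries at 4 weeks, and 434, 13878 and 43705 against 49132, 1780 and 7557 at 12 weeks. Tnni2, the fast troponin I, had 45283, 19570 and 17594 counts in control and 6815, 5778 and 1742 in DMM libraries at 4 weeks, and 271, 7764 and 23792 against 27168, 1105 and 3740 at 12 weeks. Tnnt3, the fast troponin T, had 102958, 40304 and 35990 counts in control and 12869, 10262 and 3092 in DMM libraries at 4 weeks, and 436, 13909 and 47770 against 50836, 1572 and 4632 at 12 weeks. In each of them replicate 1 of the 12-week control group was the lowest library, and replicate 3 of that group and replicate 1 of the 12-week DMM group were the highest of their groups. Over the 9 libraries the highest level was 101 times the lowest for Tnni2, 116 times for Tnnc2, 126 times for Tnnt3 and 334 times for Myh4.

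The other fast myosins followed Myh4 only in part. Myh1, the 2X myosin, had 8425, 5913 and 4134 counts in control and 421, 468 and 167 in DMM libraries at 4 weeks, and 16, 907 and 188 against 8193, 565 and 51 at 12 weeks. Myh2, the 2A myosin, had 4176, 1321 and 549 counts in control and 62, 285 and 28 in DMM libraries at 4 weeks, and 2, 383 and 11 against 826, 105 and 26 at 12 weeks. Replicate 3 of the 12-week controls, which had the highest Myh4 level of all, had 188 counts of Myh1, 11 of Myh2 and 0 of Myh7. Of all runs of 50 bases, the read length, 22.3% of the Myh2 transcript, 23.2% of Myh1 and 13.3% of Myh4 also occur in another member, against 0.216% of Myh7 and 0 in the troponins. Counts of the fast myosins could therefore hold reads of one another. In that replicate 3, with 64737 counts of Myh4, reads of Myh4 could make up at most the 188 counts of Myh1 and the 11 of Myh2.

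Levels per transcript length put the fast troponins and Myh4 first in all 4 groups. In 4-week control cartilage the mean levels were 1705 ± 1561 CPM per kilobase for Tnnc2, 1201 ± 897 for Tnnt3, 820 ± 561 for Tnni2 and 176 ± 81.2 for Myh4 (SD, n = 3). The slow troponins followed with 36.0 ± 46.3 CPM per kilobase for Tnnt1, 34.1 ± 43.2 for Tnnc1 and 25.1 ± 33.4 for Tnni1. The lowest were Myh1 with 21.7 ± 10.1, Myh2 with 7.37 ± 7.66 and Myh7 with 5.11 ± 7.31 CPM per kilobase. The neighbours within each of these sentences differed by less than their SD, apart from Tnni2 and Myh4 and from Myh1 and Myh2. In DMM cartilage of the same week the order began alike, at 290 ± 177 CPM per kilobase for Tnnc2, and ended with Myh7 at 0.00374 ± 0.00648.

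Promoters are shown for the 4 myosins, which range from the slow isoform to the fastest, and for the slow and fast troponin C. Each is the 250 bases before the start in RefSeq on GRCm38.p6, 5′ to 3′ on the strand of the gene, and 8 of the 10 members had an entry. Myh7 lies on the minus strand (chr14:54994550-54994799), Myh2 (chr11:67170777-67171026), Myh1 (chr11:67199852-67200101), Myh4 (chr11:67237562-67237811) and Tnnc1 (chr14:31208062-31208311) on the plus strand, and Tnnc2 (chr2:164779735-164779984) on the minus strand. Capitals mark matches on either strand to the E-box (CANNTG, bound by MyoD and its relatives), the MCAT element (CATTCC, bound by TEAD factors), the TATA box (TATAAA), the MEF2 site and the CArG box, bound by SRF.
Myh7: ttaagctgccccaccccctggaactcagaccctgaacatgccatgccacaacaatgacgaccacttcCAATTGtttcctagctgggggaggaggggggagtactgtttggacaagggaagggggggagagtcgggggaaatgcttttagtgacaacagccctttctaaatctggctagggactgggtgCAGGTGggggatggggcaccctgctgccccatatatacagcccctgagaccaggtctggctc
Myh2: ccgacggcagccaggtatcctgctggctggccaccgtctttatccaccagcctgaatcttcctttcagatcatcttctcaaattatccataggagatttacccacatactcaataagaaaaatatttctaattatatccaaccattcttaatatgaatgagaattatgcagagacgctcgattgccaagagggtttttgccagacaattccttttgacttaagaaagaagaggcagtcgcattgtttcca
Myh1: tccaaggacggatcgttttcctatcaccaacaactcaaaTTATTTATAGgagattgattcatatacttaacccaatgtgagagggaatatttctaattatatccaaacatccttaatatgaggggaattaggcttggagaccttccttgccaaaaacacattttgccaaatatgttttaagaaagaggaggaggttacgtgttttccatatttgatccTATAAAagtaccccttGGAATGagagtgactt
Myh4: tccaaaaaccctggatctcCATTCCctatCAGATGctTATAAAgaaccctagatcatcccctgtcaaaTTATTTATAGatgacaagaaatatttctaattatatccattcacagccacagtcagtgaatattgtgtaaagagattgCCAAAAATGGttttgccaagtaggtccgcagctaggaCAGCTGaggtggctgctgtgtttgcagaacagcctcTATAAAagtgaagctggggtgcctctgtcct
Tnnc1: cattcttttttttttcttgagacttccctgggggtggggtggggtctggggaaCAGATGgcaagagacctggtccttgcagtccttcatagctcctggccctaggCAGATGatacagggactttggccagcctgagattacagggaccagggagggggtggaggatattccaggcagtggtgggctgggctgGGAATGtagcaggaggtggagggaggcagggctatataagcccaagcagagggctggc
Tnnc2: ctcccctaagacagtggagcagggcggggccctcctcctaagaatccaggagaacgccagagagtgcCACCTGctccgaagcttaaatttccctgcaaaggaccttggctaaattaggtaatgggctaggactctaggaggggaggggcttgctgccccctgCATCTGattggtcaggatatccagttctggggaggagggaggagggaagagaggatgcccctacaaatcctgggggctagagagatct

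The Myh4 window held 2 E-boxes, 1 MCAT element, 3 TATA boxes, 1 MEF2 site and 1 CArG box, and the Myh1 window held 1 MCAT element, 2 TATA boxes and 1 MEF2 site. In both genes 1 TATA match lay on the minus strand inside the MEF2 site. Myh7, Tnnc1 and Tnnc2 had 2 E-boxes each, Tnnc1 also had an MCAT element, and the Myh2 window matched none of these motifs. The E-box was found in 6 of 8 members and in 66.2% of all 32851 promoters of the table. The MCAT element was found in 3 members and 12.6% of promoters, the TATA box in 3 and 12.4%, the MEF2 site in 2 and 2.92%, and the CArG box in 1 and 1.47%. A match describes letters and not a bound site.

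The share of the slow isoform was then taken within each library, where depth cancels. Myh7 made up 4.08%, 0.646% and 0.533% of the myosins per length in the 4-week control libraries and at most 0.0391% in the others. Of the counts, these control libraries had exact (Clopper-Pearson) 95% intervals of 3.96% to 4.23%, 0.579% to 0.724% and 0.469% to 0.607%. Among the libraries without Myh7, replicate 1 of the 4-week DMM group had 0 of 14775 myosin counts, which allows a share of up to 0.0203% (3 counts of the total, the limit used here for a count of 0), and replicate 3 of the 12-week controls had 0 of 64936, which allows up to 0.00462%. Replicate 1 of the 12-week controls had 0 of 240, which allows up to 1.25%, so a share as low as in 2 of the 4-week control libraries was not detectable there.

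**Figure D2:**
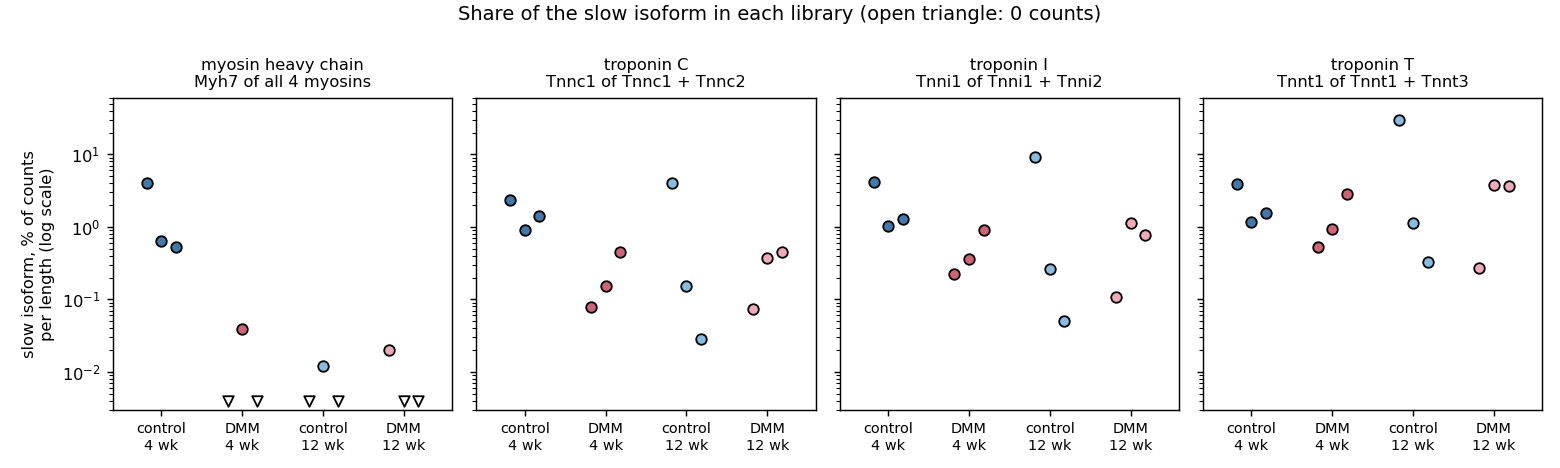
Share of the slow isoform among the isoforms of its protein, in percent of counts per length (log scale), in each RNA library; open triangles are 0 counts. The myosin share separates the 3 control libraries of 4 weeks from the others, while each troponin share is as high or higher in 1 control library of 12 weeks, up to 29.8% for troponin T.

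The troponin shares overlapped more between groups. Tnnc1 was 2.34%, 0.913% and 1.40% of troponin C per length in 4-week control and 0.0775%, 0.154% and 0.443% in 4-week DMM libraries. Tnni1 was 4.16%, 1.04% and 1.29% of troponin I in control and 0.225%, 0.356% and 0.910% in DMM libraries. Tnnt1 was 3.85%, 1.15% and 1.57% of troponin T in control and 0.520%, 0.944% and 2.84% in DMM libraries. At 4 weeks the limbs overlapped in the share of Tnnt1 but not in those of Tnnc1 and Tnni1. At 12 weeks the highest shares, 4.04% for Tnnc1, 9.16% for Tnni1 and 29.8% for Tnnt1, were all in control replicate 1, the library with the lowest level of fast troponins.

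None of 6 isoform ratios differed between limbs over both weeks in an exact permutation test within weeks (two-sided, 400 arrangements, all 6 adjusted p = 0.685). On the log2 scale DMM minus control was −2.62 for Myh7 to Myh4 (exact permutation p = 0.18), −1.59 for Tnnc1 to Tnnc2 (p = 0.23), −1.12 for Tnni1 to Tnni2 (p = 0.41) and −0.72 for Tnnt1 to Tnnt3 (p = 0.585). Among the fast myosins it was 0.83 for Myh2 to Myh4 (exact permutation p = 0.685) and 0.60 for Myh1 to Myh4 (p = 0.65). With 1 library left out it ran from −3.70 to −1.65 for Myh7, from −2.39 to −0.60 for Tnnc1 and from −1.96 to −0.053 for Tnni1, and the values nearest 0 were those without replicate 1 of the 12-week controls. The others turned sign, from −1.46 to 0.30 for Tnnt1, −0.36 to 1.71 for Myh2 and −0.25 to 1.39 for Myh1. At 4 weeks alone it was −6.25 for Myh7, −3.01 for Tnnc1, −2.09 for Tnni1 and −1.06 for Myh1, each with p = 0.1, the smallest that 3 against 3 libraries allow in this exact test, and −0.77 for Tnnt1 (p = 0.4) and −1.04 for Myh2 (p = 0.5). At 12 weeks alone the ratios of Myh7, Tnnc1, Tnni1, Myh1, Tnnt1 and Myh2 differed by 1.01, −0.18, −0.16, 2.26, −0.66 and 2.70 (exact permutation p = 0.8, 1.0, 1.0, 0.4, 0.9 and 0.5). With 1 library left out the first 3 and that of Tnnt1 turned sign, as that of Myh7 from −1.15 to 2.94, while Myh1 ran from 0.57 to 3.83 and Myh2 from 0.32 to 4.46. Where Myh7 had 0 counts, its ratio was set by Myh4 and the 0.5 added to each count. With 5 added instead, the Myh7 difference was −1.56 over both weeks, −3.65 at 4 weeks and 0.54 at 12 weeks. That of Tnni1 at 4 weeks was then −1.87 (exact permutation p = 0.2).

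**Figure D3:**
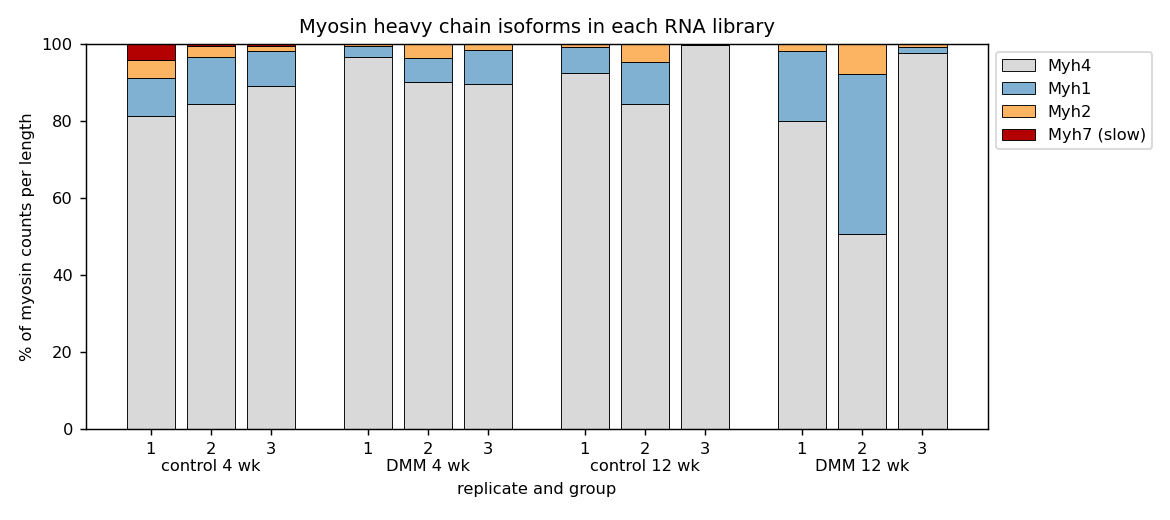
Percent of myosin heavy chain counts per length from Myh4, Myh1, Myh2 and Myh7 in each RNA library. Myh4 is the largest part of every bar, from 50.6% in replicate 2 of the 12-week DMM group to 99.7% in replicate 3 of the 12-week controls, and Myh7 reaches 4.08% in replicate 1 of the 4-week controls.

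The mixture of fast myosins differed between libraries of one group. Myh1 was 9.26% to 12.2% of the myosins per length in 4-week control and 2.85% to 8.95% in 4-week DMM libraries. At 12 weeks it was 0.290% to 10.98% in control and 1.59% to 41.7% in DMM libraries. Myh2 was 0.0168% to 4.60% in control and 0.806% to 7.69% in DMM libraries of that week. The limbs were apart in the share of Myh1 at 4 weeks and overlapped in the 12-week shares.

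In the test across all transcripts at 4 weeks, the 10 isoforms had lower fitted levels in DMM than in control cartilage, and Myh1 alone was called. Myh1 fell by 3.81 on the log2 scale (SE 0.45, edgeR quasi-likelihood test, adjusted p = 0.0491). In this test 0.0757% of 21140 transcripts were called, and 0.0142% were called lower. At an unadjusted p under 0.05, 4 of 4 slow and 6 of 6 fast isoforms passed, as did 13.7% of all transcripts. The median difference was −5.77 for the slow and −2.50 for the fast isoforms, against −0.03 over all transcripts. Without control replicate 1 these medians were −3.78 and −1.79, against −0.02. The set was chosen by counts of muscle genes in these same libraries. Its shares and medians beside those of all transcripts are therefore a description and no test of the set. The fitted value of Myh7 depends on the prior count, since its DMM libraries held 3 counts in all.

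In each of the 10 isoforms every DMM library was below every control library at 4 weeks, as in 10.4% of the transcripts tested. The differences were −6.27 for Tnnc1 (SE 1.06, edgeR adjusted p = 0.18), −5.26 for Tnni1 (SE 1.05, adjusted p = 0.197) and −4.07 for Tnnt1 (SE 0.92, adjusted p = 0.236). Without control replicate 1 they were −4.39, −3.17 and −2.12. Those of the fast isoforms other than Myh1 ran from −2.21 for Tnni2 to −3.86 for Myh2 (edgeR adjusted p 0.252 to 0.277), and without control replicate 1 from −1.48 for Tnnc2 to −2.58 for Myh2. DESeq2 called 5 of the 6 fast isoforms, all but Tnnc2, where it called 3.54% of transcripts, and 2.16% lower, and gave no adjusted p for the slow isoforms. Myh1 lost its call without control replicate 2 (edgeR adjusted p = 0.213) or without DMM replicate 1, 2 or 3 (0.141, 0.149 and 0.254), with 1 transcript per gene (0.111), with at least 10 counts in every library (0.0554) and in a fit of all 12 libraries (0.215), which called Tnnc1 instead (adjusted p = 0.0229). Without control replicate 1, the library with the most slow transcripts, edgeR called Myh7, Tnnc1, Tnni1 and Myh1, which were 4 of the 8 transcripts called of 21384. Myh7, with 0, 3 and 0 counts in the DMM libraries, entered this test only through the control libraries, so its call restates those counts.

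At 12 weeks edgeR called 0 of the 9 isoforms tested, where it called 0.00476% of transcripts, and Myh7 was too rare to be tested. None passed an unadjusted p under 0.05, which 16.3% of transcripts passed, and DESeq2 called 0 of 9, where it called 4.33% of transcripts. No isoform had every DMM library on one side of every control library, while 8.85% of transcripts were lower and 10% higher throughout. The slow troponins had small errors, with differences of 0.72 for Tnnc1 (SE 0.49), 0.45 for Tnni1 (SE 0.40) and −0.26 for Tnnt1 (SE 0.30). The fast isoforms ran from −1.10 for Myh4 (SE 2.28) to 3.30 for Myh1 (SE 2.10), so differences as large as those of 4 weeks were not detectable in them at this spread. Without DMM replicate 1 the difference was 0.73 for Myh1, and for Myh2 it was 0.025 in place of 1.76. Without control replicate 2 that of Myh2 was 5.41. Myh4 and the 3 fast troponins turned direction when 1 library was left out, with Myh4 at 2.30 without control replicate 3 and at −3.70 without DMM replicate 1.

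**Figure D4:**
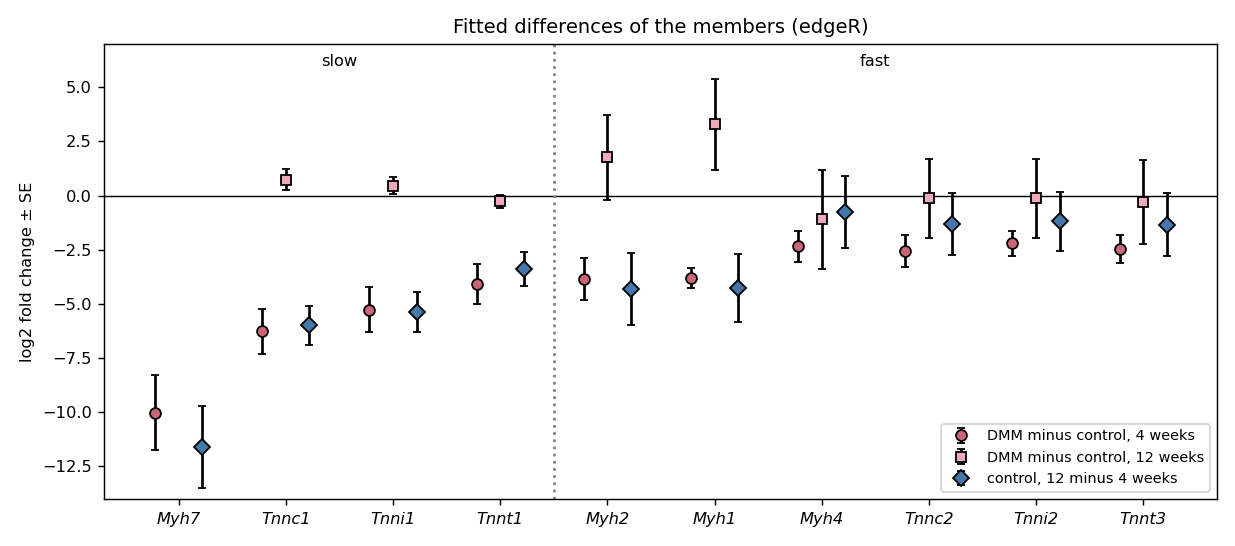
Fitted log2 fold changes ± SE (edgeR) of the 10 isoforms for DMM minus control at 4 weeks (circles) and 12 weeks (squares) and for 12 minus 4 weeks in control cartilage (diamonds). The slow isoforms are far below 0 in both contrasts that use the 4-week control libraries and close to 0 at 12 weeks, where Myh7 was not tested.

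Whether the limb difference changed between the weeks was tested in the 12 libraries together. edgeR called 0 of 10 isoforms and 0% of all transcripts, with 4 slow and 2 fast isoforms and 12.3% of all transcripts at an unadjusted p under 0.05. DESeq2 called 1 of the 7 isoforms with an adjusted p, Tnnc1, where it called 0.0741% of transcripts. The change for Tnnc1 was 6.98 (SE 1.02, DESeq2 adjusted p = 2.04e-07) against 7.01 in edgeR (SE 1.22, adjusted p = 0.405). Without replicate 1 of the 4-week controls edgeR called Tnnc1 and Tnni1 (adjusted p = 0.0307 and 0.0389), 2 of the 3 transcripts called of 21856.

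The low counts of the slow isoforms in 12-week control cartilage were also described by a contrast of the weeks. It was added after these counts had been seen, so its calls restate them and are no independent evidence, and it shares the 4-week control libraries with the limb comparison. In one fit of the 12 libraries edgeR called the 4 slow isoforms lower at 12 weeks and 0 of the 6 fast isoforms, where 5.69% of transcripts were called and 3.24% were called lower. Tnni1 fell by 5.38 on the log2 scale (SE 0.91, edgeR adjusted p = 0.0133), and Tnnc1 and Tnnt1, at −5.99 and −3.39, were called with adjusted p = 0.00773 and 0.035. Without replicate 1 of the 4-week controls the differences were −3.29 for Tnni1, −4.12 for Tnnc1 and −1.45 for Tnnt1. Each was still called (edgeR adjusted p = 0.00455, 0.00455 and 0.0471), where 0.924% of transcripts were called. Myh7 was called with adjusted p = 0.0142, and its summed counts were 4058 at 4 weeks and 1 at 12 weeks, a CPM ratio of 3909 with an exact interval of 701 to 154400 for counting error. Without replicate 1 of the 4-week controls, an alternative also chosen after seeing the data, this ratio was 754 (135 to 29820). The fast isoforms differed by −0.77 (Myh4, SE 1.66) to −4.31 (Myh2, SE 1.68), with Myh2 and Myh1 at an unadjusted p under 0.05, as were 25.4% of transcripts. Without replicate 3 of the 12-week controls Myh4 was at −4.22 and the fast troponins at −3.21 to −3.51, near the −3.52 of Tnnt1 in that fit, and without replicate 2 Myh2 was at −8.04.

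These calls depended on the libraries in the fit. With the 6 control libraries alone edgeR called 0 of the 4 slow isoforms (adjusted p 0.0713 to 0.132) and 0 of all 21222 transcripts. The 4 passed an unadjusted p under 0.05 there, but the share of all transcripts that did so was not counted. Without replicate 1, 2 or 3 of the 12-week controls edgeR called 0, 2 and 1 of the 4 slow isoforms, where 0.169%, 3% and 1.21% of transcripts were called. DESeq2 gave no p, unadjusted or adjusted, for the 4 slow isoforms and for Myh4. It called Myh1 (adjusted p = 0.00574), where it called 12.8% of transcripts. In DMM cartilage edgeR called 0 of 10 isoforms between the weeks, with 0 at an unadjusted p under 0.05, where 23.6% of transcripts were called and 37.4% had an unadjusted p under 0.05. Time after surgery and age cannot be told apart.

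Most other muscle genes also had lower fitted levels in DMM cartilage at 4 weeks, although edgeR called 0 of them. Of all transcripts 13.7% had an unadjusted p under 0.05, and DESeq2 called 3.54%, with 2.16% lower. Of 15 other slow fibre genes 13 were lower, with 9 at an unadjusted p under 0.05 and 7 called by DESeq2, and their median difference was −2.71. Of 16 other fast fibre genes 16 were lower, with 16 at an unadjusted p under 0.05 and 13 called by DESeq2, and their median was −2.46. Of 18 sarcomere genes that both fibre types use 18 were lower, with 18 at an unadjusted p under 0.05 and 16 called by DESeq2, and their median was −2.70. Of 6 tested muscle stem cell genes and myogenic regulators 6 were lower (median −2.90), with 4 at an unadjusted p under 0.05 and 3 called by DESeq2. Of these, Myod1 had 6, 6 and 0, Myog 2, 4 and 0 and Chrna1 5, 8 and 3 counts in the DMM libraries. They entered the test only through the control libraries, so their lower direction is no independent result. The same holds for Sln of the slow fibre list, with 0, 3 and 0 counts. Of the 4 tested embryonic, neonatal and cardiac isoforms 2 were lower and 2 higher (median −0.86), with 2 at an unadjusted p under 0.05 and 1 called by DESeq2. The lists were chosen with earlier results of these data known, so these counts are a description.

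The 2 most abundant genes of each muscle list had these differences at 4 weeks. Atp2a1, the calcium pump of fast fibres, differed by −2.70 (SE 0.91), and Tpm1, a tropomyosin, by −1.98 (SE 0.53). Acta1, the skeletal muscle actin, differed by −2.62 (SE 0.88), and Ckm, the muscle creatine kinase, by −2.97 (SE 0.81). Actc1, the cardiac actin, differed by −2.76 (SE 0.63), and Myl4, an atrial and embryonic light chain, by 0.18 (SE 0.28). Myf6, a myogenic transcription factor, differed by −3.14 (SE 0.68), and Chrna1, a subunit of the acetylcholine receptor, by −4.47 (SE 1.296). The edgeR adjusted p-values of these genes were 0.223 to 0.762. Fhl1 and Tpm3, which other tissues also express, differed by 0.26 (SE 0.43) and 0.00 (SE 0.18) and had the highest levels of the slow list (edgeR adjusted p = 0.783 and 0.998). At 12 weeks 13 of 15 slow fibre, 4 of 16 fast fibre and 12 of 18 sarcomere genes had higher fitted levels in DMM (medians 0.63, −0.25 and 0.27). The limbs overlapped in the summed level of the slow fibre list, at 341 to 458 CPM in control and 392 to 909 CPM in DMM libraries. edgeR called 0 genes of the slow fibre, fast fibre and sarcomere lists. At an unadjusted p under 0.05 were 1, 0 and 0, and DESeq2 called 1, 0 and 0, against 16.3% and 4.33% of all transcripts.

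The 7 lists of markers of other tissues had median differences of −0.80 to 1.07 at 4 weeks. Of 16 chondrocyte genes 13 were lower in DMM (median −0.80), and their summed level was 17400 to 41140 CPM in control and 14660 to 22010 CPM in DMM libraries. Of 8 smooth muscle genes 6 were higher (median 1.07), at 109 to 185 and 161 to 173 CPM. Of 8 tendon and ligament genes 8 were higher (median 0.53), at 2845 to 6331 and 4034 to 7571 CPM. edgeR called 0 genes of these lists, with 7, 5 and 3 at an unadjusted p under 0.05 and 1, 3 and 2 called by DESeq2, against 13.7% and 3.54% of all transcripts. The medians were −0.14 for erythroid, −0.0041 for neutrophil and marrow, 0.04 for adipocyte and 0.04 for endothelial genes. The 2 most abundant genes were Prg4 (−0.65) and Chad (−1.07) of the chondrocyte, Smtn (−0.59) and Acta2 (1.22) of the smooth muscle and Col1a2 (0.14) and Col1a1 (0.05) of the tendon list, with edgeR adjusted p of 0.253 to 0.968. Those of the other 4 lists, Hbb-bs, Hba-a2, Ngp, S100a8, Lpl, Fabp4, Pecam1 and Esam, differed by −0.22 (Lpl) to 0.46 (Fabp4). At 12 weeks 16 of 16 chondrocyte genes were higher in DMM (median 0.52), as were 6 of 8 tendon and ligament genes (0.79) and 4 of 8 smooth muscle genes (0.01). Lower were 8 of 8 erythroid (−0.32), 8 of 8 neutrophil and marrow (−0.48), 5 of 7 adipocyte (−0.12) and 6 of 8 endothelial genes (−0.12). edgeR called 0 of them at 12 weeks, with 7 at an unadjusted p under 0.05 (2 chondrocyte, 2 tendon and ligament, 1 smooth muscle and 2 erythroid) and 5 called by DESeq2 (1, 2, 0 and 2), against 16.3% and 4.33% of all transcripts. No gene of these 7 lists was at 0 in every library of a group, and the part of these tissues in the differences of the isoforms was not tested.

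The genes most like the isoforms were ranked by Pearson's r of log2 CPM over the 12 libraries among 15579 genes, as a description. The mean of the slow isoforms was followed most closely by Mhrt (r = 0.981), Myl2 (0.957), Csrp3 (0.949), Wnt4 (0.946) and BC018473 (0.928). Myl2 is the regulatory light chain of slow and cardiac myosin, and Csrp3 is a muscle LIM protein. Mhrt is transcribed opposite to Myh7, and 55.9% of its exon bases lie in Myh7 exons, so without strand reads in that overlap cannot be told apart from those of Myh7.

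The mean of the fast isoforms was followed by 2310002L09Rik (r = 0.984), Ckmt2, the mitochondrial creatine kinase of muscle (0.982), Smpx (0.979), Cox8b (0.975) and Myot, a Z-disc protein (0.974). The difference of slow minus fast was followed less closely, by Akap5 (r = 0.83), Krt16 (0.799), Wnt10a (0.73), L3mbtl4 (0.672) and Lrfn1 (0.669), and the highest of these 5 in any library was Akap5 at 2.73 CPM. The 12 points of each correlation share their libraries and depth with the isoforms.

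Methylation at the 10 genes was read in DNA of other mice. With at least 10 reads in each of the 24 DNA libraries, the promoters (1000 bases before to 500 after the start) of Myh4 and Tnni2 and the bodies of 8 genes held cytosines. The 4 cytosines of the Myh4 promoter had a mean 5mC of 47.1% ± 12.6 in control and 37.0% ± 2.41 in DMM cartilage at 4 weeks, and 49.9% ± 3.51 and 42.4% ± 2.13 at 12 weeks (SD, n = 3). The 12 cytosines of the Tnni2 promoter had 52.8% ± 4.19 and 47.5% ± 5.55 at 4 weeks, and 63.6% ± 2.28 and 54.0% ± 0.0678 at 12 weeks. The limbs overlapped at 4 weeks in both promoters, where 6.38% of the promoters of protein-coding genes had every DMM library below every control library.

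At 12 weeks the DMM libraries of both promoters were below the control libraries, as in 10.6% of the 12885 promoters with such cytosines. The Myh4 promoter had 46.3%, 53.3% and 50.1% in control and 44.6%, 40.3% and 42.3% in DMM libraries. The Tnni2 promoter had 61.7%, 63.1% and 66.1% in control and 53.9%, 54.1% and 54.0% in DMM libraries. These means were not tested, and 3 against 3 libraries cannot go below p = 0.1 in an exact permutation test. With at least 20 reads the Tnni2 promoter kept 2 cytosines, whose means of 53.7% ± 2.37 and 49.1% ± 3.602 overlapped between limbs. The mean over all 1108861 cytosines was also apart at 12 weeks, at 29.3% to 29.9% in control and 28.3% to 29.1% in DMM libraries.

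Gene bodies were more methylated than these promoters, apart from Tnnt1. The group means were 71.7% to 76.3% in Myh7 (11 cytosines), 76.9% to 81.6% in Myh2 (22), 91.7% to 93.8% in Myh1 (3) and 72.5% to 78.3% in Myh4 (3). Among the troponins they were 83.7% to 86.2% in Tnni1 (7), 69.6% to 76.0% in Tnnc2 (9), 71.1% to 76.8% in Tnnt3 (10) and 30.4% to 35.9% in Tnnt1 (17). At 12 weeks the DMM libraries were below the control libraries in 2 of the 8 bodies, a share near the 23.5% of 15263 gene bodies that did so, and at 4 weeks in 0 of 8, against 6.15%. The 2 were the bodies of Myh7, with 79.8%, 73.7% and 75.4% in control and 71.3%, 72.5% and 71.3% in DMM libraries, and of Myh2, with 80.6%, 83.2% and 80.8% against 78.4%, 76.1% and 77.0%. With at least 20 reads 1 and 9 cytosines were kept in them, and the limbs overlapped in both.

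**Figure D5:**
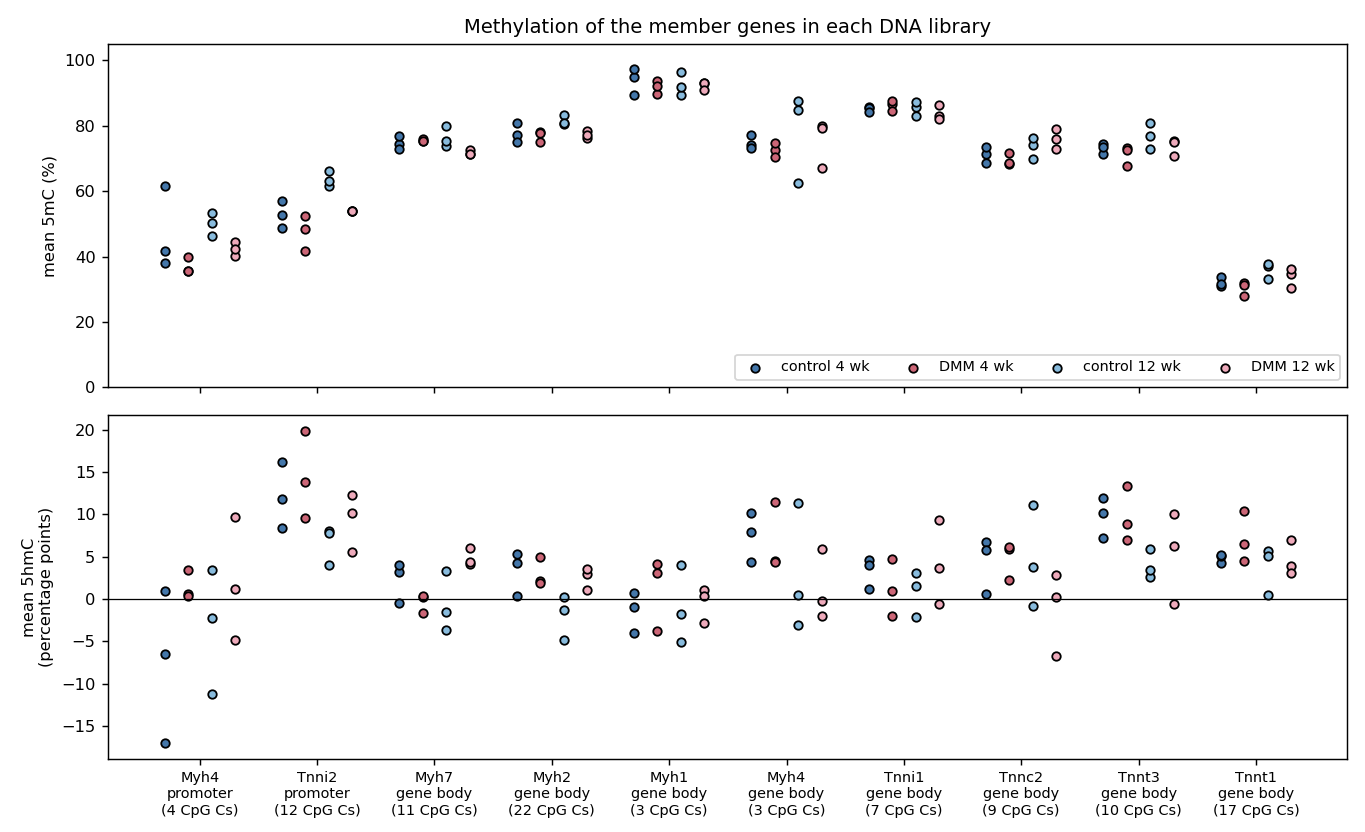
Mean 5mC (upper panel, percent) and 5hmC (lower panel, percentage points, bisulfite minus oxidative bisulfite) of promoters and gene bodies in each DNA library, with the number of cytosines. Both promoters are lower in DMM than in control libraries at 12 weeks, the body of Tnnt1 has the lowest 5mC of the gene bodies, and the Tnni2 promoter has the highest group mean of 5hmC.

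5hmC was estimated as the bisulfite minus the oxidative bisulfite mean and can be negative. It pairs libraries by the replicate number in their titles, and for the bisulfite library of replicate 1 of the 12-week DMM group the deposited data carry another replicate number, so that library's 5hmC is uncertain. Within each group the mean 5hmC was highest at the Tnni2 promoter among these regions. It was 12.1 ± 3.92 points in control and 14.4 ± 5.16 in DMM cartilage at 4 weeks. At 12 weeks it was 6.64 ± 2.24 and 9.31 ± 3.45 (SD, n = 3), and the limbs overlapped in both weeks. On the 2 cytosines with at least 20 reads these means were 0.6002, −0.711, 9.13 and −1.47 points. At the Myh4 promoter the group means were −7.50 to 1.98 points, and over all cytosines they were 1.503 to 2.57 points. In 2 of the 8 gene bodies, those of Myh7 and Myh2, the 12-week DMM libraries were above the control libraries without overlap, as in 11.2% of gene bodies. The body of Myh7 had −3.73, 3.24 and −1.57 points in control and 5.99, 4.09 and 4.32 in DMM libraries. The body of Myh2 had −4.87 to 0.208 points in control and 1.11 to 3.49 in DMM libraries. These are the bodies with lower 5mC in DMM libraries, and the oxidative bisulfite values enter both measures with opposite signs. With at least 10 reads, replicates 2 and 3 of the DMM group alone were also above the controls in both bodies. With at least 20 reads, which kept 1 cytosine in Myh7 and 9 in Myh2, the limbs overlapped in both, also without DMM replicate 1. The Myh7 means were then 5.78 points in control and −0.0504 in DMM libraries.

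Single cytosines were tested on pooled reads with a likelihood ratio test (q under 0.05 and at least 25 points). At 4 weeks 0 of 122 cytosines in the 10 genes were called, where 0.000554% of 1444973 were called, and 9 had an unadjusted p under 0.05, as had 8.02% of all cytosines. At 12 weeks 1 of 112 was called, where 0.227% of 1273121 were called, and 19 had an unadjusted p under 0.05, as had 9.43% of all. It lay in the body of Myh4 at position 67239397 of chromosome 11 (GRCm38, plus strand), with 71.3%, 40.9% and 76.9% 5mC in control and 27.7%, 46.5% and 60.4% in DMM libraries (difference −27.0 points, q = 0.00105, 22 to 94 reads). The limbs overlapped there at 12 weeks. Control replicate 2 and DMM replicate 1 were the lowest of their groups. Their titles lack the prefix for week and DNA that the other DNA libraries of 12 weeks carry. What this marks is not stated, and its part in the difference was not tested. At 4 weeks the same cytosine had 52.9%, 50% and 53.1% in control and 42.8%, 36.0% and 34.9% in DMM libraries (difference −11.7 points, q = 0.549), without overlap. A correction for the spread between libraries left 0 of 112 called at 12 weeks, as did leaving out control replicate 1, control replicate 3 or DMM replicate 1, and 2 were called without control replicate 2, DMM replicate 2 or DMM replicate 3. Of all cytosines 2892 had been called, against 1100 with that correction, 3305, 2248 and 1641 in the fits with 0 and 5720, 4362 and 4109 in those with 2. This test counts reads and not mice.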

How the data were processed

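RNA-seq and reduced representation oxidative bisulfite sequencing libraries were grouped by their titles, also where 1 bisulfite library was deposited under another replicate number. The authors trimmed RNA reads with FLEXBAR, aligned them to mm10 with STAR and deposited featureCounts counts per RefSeq transcript. For DNA cut with MspI they deposited coverage and percent of methylated reads per cytosine. The submitters' processing notes also name Bismark and CASAVA 2.17. The labels and the study's methods differ on the RNA kit, and strand was taken as not resolved.

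Members and gene lists were chosen with earlier results of these data known. Counts were tested with edgeR 4.0.16 (R 4.3.3, filterByExpr, TMM, quasi-likelihood test, 6 libraries per week, Benjamini-Hochberg adjusted p under 0.05), and alternatively with DESeq2 1.42.0. The SE of an edgeR difference was derived as its absolute log2 value divided by the square root of the F statistic of the test. Isoform ratios were log2 of counts plus 0.5 and were tested by exact permutation (SciPy 1.17.1). Methylated reads at cytosines with at least 10 reads were tested by a likelihood ratio test. Named genes were the 10 members, the 2 most abundant genes of each list and the 5 genes most correlated with each pattern. Alternatives changed the normalization, the filter, the transcripts per gene, the test, the count added in the ratios, the replicate block, the coverage and the libraries. Limits for a count of 0 are 3 counts of the total, other intervals are exact at a level of 0.95, and both cover counting error only. Scripts were tested on simulated data.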

Additional observations from a re-analysis of the deposited data

Results flagged for a closer look

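The limb difference of Tnnc1 changed between 4 and 12 weeks by 6.98 on the log2 scale in DESeq2 (SE 1.02, adjusted p = 2.04e-07), while edgeR gave 7.01 (SE 1.22) with an adjusted p of 0.405. For the limb difference at 4 weeks alone, DESeq2 gave no adjusted p for Tnnc1 or the other slow isoforms.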

How the results depend on the processing

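At 4 weeks the isoforms tested were lower in DMM cartilage under every alternative run, which was 10 of 10 except with at least 10 counts in every library, where Myh7 and Tnnc1 were not tested and 8 of 8 were lower. The number called there was 1, and it became 0 with 1 transcript per gene, 0 with at least 10 counts in every library, 5 with DESeq2 and 9 with the replicate block, which called 1.67% of all transcripts, and it ran from 0 to 4 when 1 library was left out. Over all transcripts at 4 weeks 16 were called by edgeR, 748 by DESeq2, 354 with the replicate block and 35 in a fit of all 12 libraries, where the isoform called was Tnnc1 and not Myh1. At 12 weeks these counts were 1 with edgeR, 873 with DESeq2 and 734 with the block, and 0 isoforms were called in any setting. For the interaction 1 isoform was called by DESeq2, and 0 to 2 with 1 library left out. The slow isoforms called between the weeks in control cartilage, a contrast chosen after seeing the data, went from 4 to 0 with the 6 control libraries alone and from 0 to 4 with 1 library left out. Library totals without TMM, also added after seeing the data, changed no number of isoforms called.

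Left and right knees came from the same mice, but no source used here says that equal replicate numbers mark the same mice, and the data did not show it. The correlations of same-numbered deviations were 0.359, −0.326 and 0.0808 at 4 weeks and −0.548, 0.262 and −0.254 at 12 weeks. With the replicate block the 9 isoforms called at 4 weeks were all but Tnnt1, 0 were called at 12 weeks and for the interaction, the adjusted p of the ratios were 0.6375 to 0.7188, and 0 and 1 cytosines were called at 4 and 12 weeks. Myh7 was among the 9 and had entered that test only through the control libraries.

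Leaving out 1 library turned the direction of some values that had not been called. At 12 weeks the log2 differences ran from −3.70 to 2.30 for Myh4, −1.995 to 1.88 for Tnnc2, −2.04 to 1.84 for Tnni2 and −2.64 to 1.83 for Tnnt3. Without DMM replicate 2 they were 0.38 for Tnnc2, 0.37 for Tnni2 and 0.23 for Tnnt3, and without DMM replicate 3 they were 0.25, 0.28 and 0.18. The log2 ratios over both weeks ran from −0.25 to 1.39 for Myh1 to Myh4 (−0.026 without DMM replicate 2 of 12 weeks), −0.36 to 1.71 for Myh2 to Myh4 and −1.46 to 0.30 for Tnnt1 to Tnnt3. At 12 weeks they ran from −1.15 to 2.94 for Myh7 to Myh4, −1.77 to 1.82 for Tnnc1 to Tnnc2, −1.83 to 1.98 for Tnni1 to Tnni2 and −2.14 to 1.38 for Tnnt1 to Tnnt3, and without DMM replicate 1 the troponin ratios were 0.66, 0.89 and 0.62. Cytosines called ran from 0 to 1 at 4 weeks (1 without control replicate 2, where 3039 of all were called against 8) and 0 to 2 at 12 weeks with 1 library left out, and were 0 at 12 weeks with the correction for overdispersion. With 20 reads, which leaves 2 cytosines, the Tnni2 promoter had 5mC of 53.7% in control and 49.1% in DMM cartilage at 12 weeks, and 5hmC of 0.6002, −0.711, 9.13 and −1.47 points in control and DMM cartilage at 4 and then 12 weeks. The causes of these changes were not tested. The small number of myosin counts limits the Myh7 share in replicate 1 of the 12-week controls, where 0 of 240 allow up to 1.25% (3 counts of the total). That library held 41088667 counts in all.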

Other observations

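The values of 2 other muscle genes, named after they were seen, are given here. Sln, which encodes a small inhibitor of the calcium pump in slow and atrial muscle, had 1542, 116 and 81 counts in the 4-week control libraries and 0, 3 and 0 in the 4-week DMM libraries. At 12 weeks it had 1, 4 and 9 counts in control and 17, 14 and 1 in DMM libraries. Mb, the oxygen store myoglobin, had 16390, 5789 and 3811 counts in control and 724, 1347 and 339 in DMM libraries at 4 weeks, and 30, 2498 and 669 against 11054, 589 and 176 at 12 weeks. Sln was low in the 9 libraries where Myh7 was low, whereas Mb was high again in replicate 1 of the 12-week DMM group, which also had the most Myh1 and Myh2 of its week. Sln does not stand for the whole slow fibre list. In that library Mybpc1 and Actn2 of this list had 7524 and 4077 counts, while Myl2 and Myl3 had 64 and 80.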
